A study of Sorghum bicolor with 12 samples.

Results

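The drought response of the sensitive sorghum genotype IS20351 was described by comparing its drought stressed plants (DS) with its well-watered plants (WW) over the transcripts of 17532 genes. A transcript was taken when its mean value was at least 1 RPKM (reads scaled by transcript length and by the total reads of the library) in WW or DS plants, which held for 18221 of the 27989 transcripts in the deposited files. Of these, 16232 reached the minimum in both treatments, 941 in WW alone and 1048 in DS alone. IS20351 and the tolerant IS22330 are sorghum genotypes of the durra race, grown in pots with 1 plant per pot. DS plants were dried to a fraction of transpirable soil water of 0.2 and held there for 9 days, WW plants were kept close to 0.7, and all were 42 days old at sampling. Each genotype and treatment was represented by 3 biological replicates. The labels give the tissue as leaf and the protocol as leaf meristem, in which cell types were not separated.

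A leaf that runs short of water closes its stomata and takes up less CO2, while light goes on reaching its chloroplasts. Light harvesting proteins bind chlorophyll and pass energy to photosystems I and II, electrons then move through ferredoxin to NADPH, and the Calvin cycle uses NADPH and ATP to fix CO2. Starch and sucrose hold the fixed carbon, membrane lipids and cuticular wax limit damage and water loss, and thiol and ascorbate enzymes remove the reactive oxygen that forms when absorbed light is not used.

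For each transcript the deposited files give unique reads and RPKM only as means over the 3 libraries of a group, and the reads of each library were solved from those means. The solved reads of all 27989 transcripts summed to the library total in each of the 6 IS20351 libraries, with a difference of 0. Libraries held 26398759 to 28680141 reads on transcripts, and 22875 to 24236 transcripts had reads in a library. Letters a, b and c follow the library totals upwards, because the files give no replicate numbers, and the same letter does not pair a WW with a DS plant. Log2 RPKM values correlated at 0.877 to 0.964 within a treatment and at 0.795 to 0.868 between treatments. The first principal component held 54.9% of the variance and placed the WW libraries at -93.9, -34.5 and -93.1 and the DS libraries at 86.2, 41.6 and 93.8. WW library b and DS library b thus lay nearest to the other treatment, and the treatments did not overlap on that axis. In the sentences that follow, values of a transcript are in the order of libraries a, b and c.

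By sign alone, 9421 log2 ratios were above 0 and 8800 below it, while the transcripts that passed the test were more often lower than higher in DS plants. In the edgeR quasi-likelihood test of the 6 libraries, 698 transcripts were called higher and 1207 lower under drought at an adjusted p under 0.05, which is 3.83% and 6.62% of those tested and 10.5% together. The median log2 ratio of DS over WW was 1.72 among the transcripts called higher, -1.66 among those called lower and 0.03 over all transcripts tested. Among the calls 288 were at least 4-fold higher and 404 at least 4-fold lower. The smallest adjusted p was 0.00175, and 0 transcripts met the thresholds the study used, which were 0.001 for the adjusted p and 2 for the size of the log2 ratio, whereas 5555 had an unadjusted p under 0.05. At those same thresholds limma called 2 or 3 transcripts, depending on the pseudocount, and DESeq2 called 682. The counts rested on single libraries. They were 6 higher and 24 lower without WW library a, 87 and 259 without WW library c, 15 and 25 without DS library a, and 402 and 768 without DS library c, but 926 and 1209 without WW library b and 872 and 1411 without DS library b. A fit of all 12 libraries of both genotypes, which shares their spread, called 260 higher and 476 lower, of which 244 and 444 were also called in the fit of 6. The direction of the split depended on the scaling as well. TMM factors of 0.942 to 1.14 were applied, and with library totals alone 895 transcripts were higher and 850 lower, so that the share of calls that were higher was 36.6% with TMM and 51.3% without. The median log2 ratio over all transcripts was 0.16 without TMM factors. An exact permutation test of 3 against 3 libraries cannot give a two-sided p under 0.1, so single transcripts rest on the spread that edgeR shares over all of them.

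**Figure D1:**
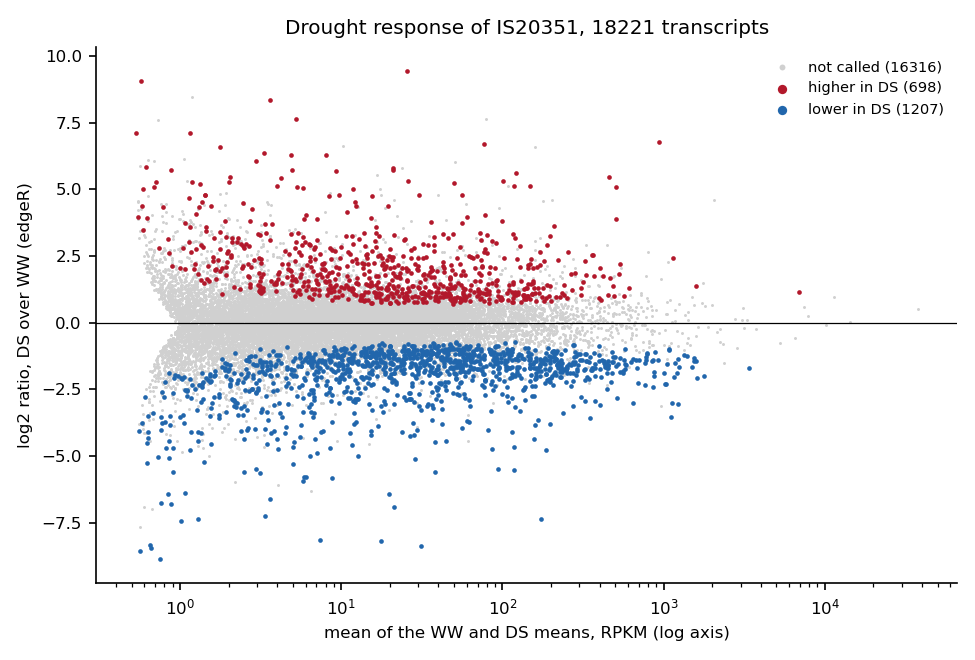
Log2 ratio of DS over WW (edgeR) against the mean of both group means in RPKM on a log axis, 1 point per transcript, with 698 transcripts called higher in red and 1207 called lower in blue. Calls were made at all levels, and blue points prevail over red ones at the right of the plot.

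The balance of calls changed with the level of expression. Among 2857 transcripts at a mean under 2 RPKM, 66 were called higher and 94 lower. Among 586 transcripts at 200 to 1000 RPKM, 37 were higher and 155 lower, and among the 81 at 1000 RPKM or more, 3 were higher and 23 lower. The share of calls that were higher was thus 41.2% in the lowest class and 11.5% in the highest. With library totals alone the counts in those same classes were 69 and 75, 45 and 132, and 4 and 21. From 50 to 200 RPKM they were 190 and 221. Higher calls led in the largest classes without scaling, with 205 higher and 156 lower at 2 to 10 RPKM and 382 and 245 at 10 to 50 RPKM, where TMM scaling gave 171 and 247, and 262 and 401. Lower calls thus exceeded higher calls under both scalings from 50 RPKM upwards and under 2 RPKM, and the order turned with the scaling between 2 and 50 RPKM. The share of all transcripts called was 5.6% in the lowest class and 32.1% in the highest. The median size of the log2 ratio was 0.854 and 0.826 in these classes and 0.471 at 10 to 50 RPKM. More reads stand behind each value in the highest class, and the cause of the change in share was not tested. The 1207 transcripts called lower took 22.6, 21.4 and 22% of the reads in WW libraries and 6.93, 8.32 and 7.36% in DS libraries. Those called higher took 2.38, 2.75 and 2.49% in WW and 9.21, 8.42 and 7.61% in DS libraries. These shares describe transcripts chosen by the same contrast and carry no test.

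**Figure D2:**
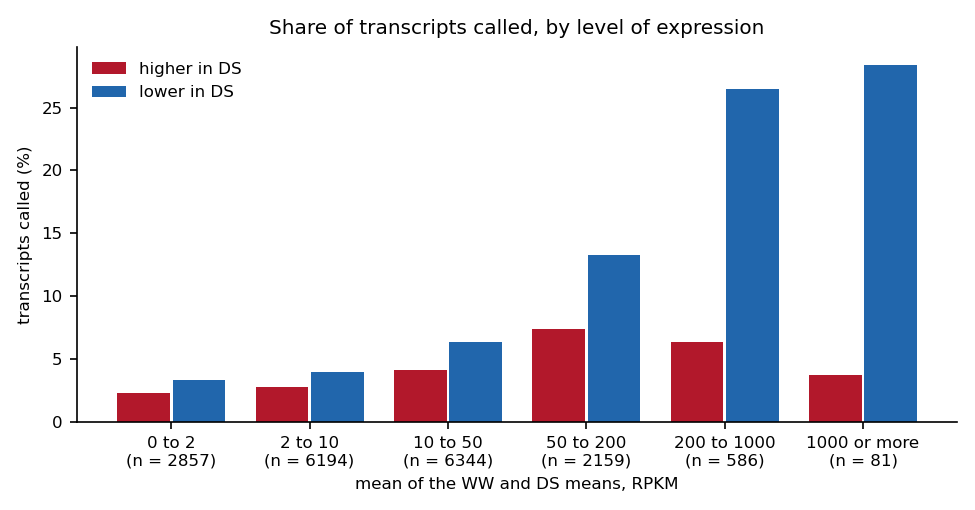
Share of tested transcripts called higher (red) or lower (blue) in DS plants at an edgeR adjusted p under 0.05, in 6 classes of mean RPKM with the number of transcripts in each. With TMM scaling, as drawn, blue bars exceed red bars in every class and the gap is widest from 200 RPKM upwards, whereas with library totals alone higher calls led between 2 and 50 RPKM.

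Size alone gave another balance. Of 18204 transcripts with reads in both treatments, 741 were at least 4-fold higher and 593 at least 4-fold lower in the ratio of the deposited means, or 4.07% and 3.26%. Libraries of the treatments did not overlap for 6994 transcripts, with the 3 DS libraries above the 3 WW libraries for 4116 (22.6%) and below them for 2878 (15.8%). After TMM scaling these counts were 3262 and 3563, so their order turned with the scaling. All 1905 called transcripts were among those that did not overlap. Members without a read in 1 treatment were few, 8 in WW and 9 in DS libraries, of which 3 were called higher and 6 lower.

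The largest differences at 5 RPKM or more belonged to transcripts without a name in the sources used here. Sb10g012265.1 was at 0, 0.155 and 0 RPKM in WW and 75.4, 14.8 and 62.7 in DS libraries, a ratio of 9.42 on the log2 scale (SE 1.11, adjusted p = 0.00959), and its WW value rested on 1 read in all. Sb06g000780.1 was at 0, 0.0243 and 0.024 RPKM in WW and 4.68, 16 and 0.924 in DS libraries, a ratio of 8.34 on the log2 scale (SE 1.33, adjusted p = 0.0166). Both were close to absent in WW plants and spread widely between DS plants. On the other side Sb02g028130.1 was at 63.4, 22.5 and 99.8 RPKM in WW and 0.0865, 0.252 and 0.248 in DS libraries, a ratio of -8.35 on the log2 scale (SE 0.79, adjusted p = 0.00595). Sb09g025060.1 was at 61.2, 20.4 and 24.1 RPKM in WW and 0, 0.116 and 0.228 in DS libraries, a ratio of -8.19 on the log2 scale (SE 0.86, adjusted p = 0.00785). The DS values of these rested on 7 and 3 reads, so their ratios are imprecise.

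Calls were spread over the genome as far as the transcript identifiers tell. On the 10 chromosomes named in them, 2.97 to 4.76% of the tested transcripts were called higher and 5.59 to 7.46% lower, with the highest share of higher calls on chromosome 6 and the highest share of lower calls on chromosome 2. Of 622 genes with several tested transcripts, 106 had at least 1 call. All transcripts were called higher in 15 of them and lower in 12, a part was called in a single direction in 79, and 0 genes had calls in both directions. In 6 genes a called transcript stood beside another with a ratio of the opposite sign. Reads on exons that transcripts share cannot be divided, so ratios of transcripts of 1 gene are uncertain and not independent. The library protocol states no strand marking, and reads of overlapping antisense genes cannot be told apart.

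Names were available for 174 transcripts, from a table in which the study grouped transcripts by pathway after matching them to Arabidopsis, rice or maize genes. The study chose these transcripts for the size of their drought difference in IS20351 or in IS22330, the latter not compared here. Sb03g013420.1, for example, had a log2 ratio of 0.15 in IS20351 and -4.085 in IS22330. Directions and counts of the listed transcripts are thus not independent evidence of a pathway response. Their medians and the counts not called include some that were listed for IS22330. Of the 174, 138 were at 1 RPKM or more and tested, and 28 were called higher and 52 lower, against 3.83% and 6.62% over all transcripts, a contrast that the choice of the table fixes. Their median log2 ratio was -2.14, beside 0.03 over all. In the fit of all 12 libraries 22 of these 80 calls were made. Ratios of all 138 kept their direction with the other tests and scalings, and so did the 114 left at 1 RPKM in at least 3 libraries, the 95 left at a mean of 5 RPKM and the 127 left with 1 transcript per gene, and 9 ratios of transcripts that were not called changed sign when 1 library was left out.

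Transcripts of light harvesting proteins, which hold chlorophyll around the photosystems, were lower in DS plants in all 8 listed cases. Of these 8, 7 were called, where 6.62% of all transcripts tested were called lower. The study chose the 8 for their difference in the same libraries, and 2 of them are transcripts of 1 gene. LHCB4 (CP29, Sb02g036260.1), a minor antenna protein between photosystem II and its outer antenna, was at 1637, 1916 and 1548 RPKM in WW and 361, 427 and 345 in DS libraries, a ratio of -2.29 on the log2 scale (SE 0.23, adjusted p = 0.00764). LHCB5 (Sb05g007070.1), another minor antenna protein, was at 2064, 2448 and 2040.5 RPKM in WW and 252, 217 and 377 in DS libraries, a ratio of -3.04 on the log2 scale (SE 0.35, adjusted p = 0.00921). For both, no DS plant came near the level of any WW plant. LHCB6 (Sb06g032690.1), the third protein of that kind, was at 2328, 714 and 2885 RPKM in WW and 306, 256 and 246 in DS libraries, a ratio of -3.0 on the log2 scale (SE 0.52, adjusted p = 0.0205), and its WW library b lay nearest to the DS range. The neighbouring identifiers Sb03g027030.1 and Sb03g027040.1 are both annotated as chlorophyll a-b binding protein 2, a protein of the main antenna. Sb03g027030.1 was at 153, 96.6 and 96.6 RPKM in WW and 15.4, 5.38 and 7.31 in DS libraries, a ratio of -3.74 on the log2 scale (SE 0.47, adjusted p = 0.0106). Sb03g027040.1 was at 312, 210.3 and 173 RPKM in WW and 40.4, 16.9 and 18.4 in DS libraries, a ratio of -3.32 on the log2 scale (SE 0.44, adjusted p = 0.0112). Levels of this pair differed between the genes, while the order of their libraries within DS plants was alike, with library a highest. Only unique reads were counted, so a read that matched both genes entered neither level. Whether the 2 ratios are separate was not tested.

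The antenna of photosystem I was represented by few reads. LHCA4 (Sb07g021260.3) was at 4.41, 11.9 and 3.94 RPKM in WW and 1.81, 1.02 and 0.946 in DS libraries, a ratio of -2.53 on the log2 scale (SE 0.54, adjusted p = 0.0323). LHCA2 (Sb02g037410.3) was at 2.07, 6.41 and 2.04 RPKM in WW and 0.387, 0.107 and 0.581 in DS libraries, a ratio of -3.34 on the log2 scale (SE 0.79, adjusted p = 0.0417). Its other transcript Sb02g037410.2 had a log2 ratio of -2.54 and was not called (adjusted p = 0.0642). WW library b was the highest of all for LHCA4 and LHCA2, unlike for LHCB6. The 8 antenna transcripts summed to 6503, 5405 and 6749 RPKM in WW and to 977, 925 and 995 in DS libraries. In bulk RNA of a leaf, fewer cells that make a transcript and less of it per cell cannot be told apart.

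Subunits of the photosystems divided by direction. Photosystem I subunit O (Sb06g016090.1), which helps join the outer antenna to photosystem I, was at 1324, 1249 and 1211 RPKM in WW and 303, 193 and 314 in DS libraries, a ratio of -2.32 on the log2 scale (SE 0.30, adjusted p = 0.0111). Photosystem I subunit P (Sb02g032815.1) was at 304, 272 and 212 RPKM in WW and 40.4, 34.5 and 50.6 in DS libraries, a ratio of -2.75 on the log2 scale (SE 0.28, adjusted p = 0.00785). On the side of photosystem II, which splits water, the 11 kD protein (Sb01g036240.1) was at 1311, 686 and 1420.5 RPKM in WW and 134, 145 and 177 in DS libraries, a ratio of -3.02 on the log2 scale (SE 0.37, adjusted p = 0.0102). PsbP-like protein 1 (Sb01g049040.1), known in Arabidopsis for the repair of photosystem II, was at 167, 110.1 and 123 RPKM in WW and 14.7, 20.0 and 30.9 in DS libraries, a ratio of -2.7 on the log2 scale (SE 0.37, adjusted p = 0.0123). All 4 fell in every DS plant below the lowest WW plant, and no called transcript of any kind overlapped between treatments. Over all transcripts tested 15.8% lay below in that way. A calcium ion binding protein of photosystem II (Sb06g022890.1) rose instead and was at 4.48, 5.93 and 6.29 RPKM in WW and 38.8, 24.1 and 39.4 in DS libraries, a ratio of 2.52 on the log2 scale (SE 0.33, adjusted p = 0.0112). A second gene with that annotation, Sb04g026720.1, was not called although its libraries did not overlap, with 0.397, 1.25 and 1.52 RPKM in WW and 8.18, 4.52 and 4.95 in DS libraries, a ratio of 2.34 on the log2 scale (SE 0.62, adjusted p = 0.0553). PSBR (Sb02g002830.1), a subunit of the water-splitting side, was at 1.4, 21.4 and 1.77 RPKM in WW and 269, 252 and 23.6 in DS libraries, a ratio of 4.31 on the log2 scale (SE 1.29, adjusted p = 0.0741), and was not called. DS library c stood near WW library b for PSBR, so that the treatments were only just separate.

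Electron transfer held the highest ratio of the light reaction. The ferredoxin-NADP reductase-binding protein (Sb02g035610.1), which holds the enzyme that makes NADPH, was at 2693, 1547 and 1869 RPKM in WW and 117, 105 and 332 in DS libraries, a ratio of -3.52 on the log2 scale (SE 0.59, adjusted p = 0.0184). The thylakoid membrane phosphoprotein of 14 kDa (Sb03g035235.1) was at 578, 571 and 510.1 RPKM in WW and 124, 101 and 181 in DS libraries, a ratio of -2.12 on the log2 scale (SE 0.32, adjusted p = 0.0148). Ferredoxin-6 (Sb03g040610.1), an electron carrier, moved the other way and was at 0.364, 1.13 and 0.35 RPKM in WW and 21.8, 41.4 and 5.6 in DS libraries, a ratio of 5.02 on the log2 scale (SE 0.84, adjusted p = 0.0181), the largest rise of the list. In each DS plant ferredoxin-6 nevertheless stayed below LHCB4, LHCB5 and LHCB6. The gamma subunit of ATP synthase (Sb02g034570.2) overlapped between treatments, with a log2 ratio of -2.17 (adjusted p = 0.23). In all, 2 of the 19 light reaction transcripts were higher, 13 lower and 4 not called, with a median log2 ratio of -2.54. The count of 15 calls was 0 without WW library a, 15 without b and 10 without c, it was 2, 13 and 12 without DS library a, b and c, and 4 in the fit of all 12 libraries.

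**Figure D3:**
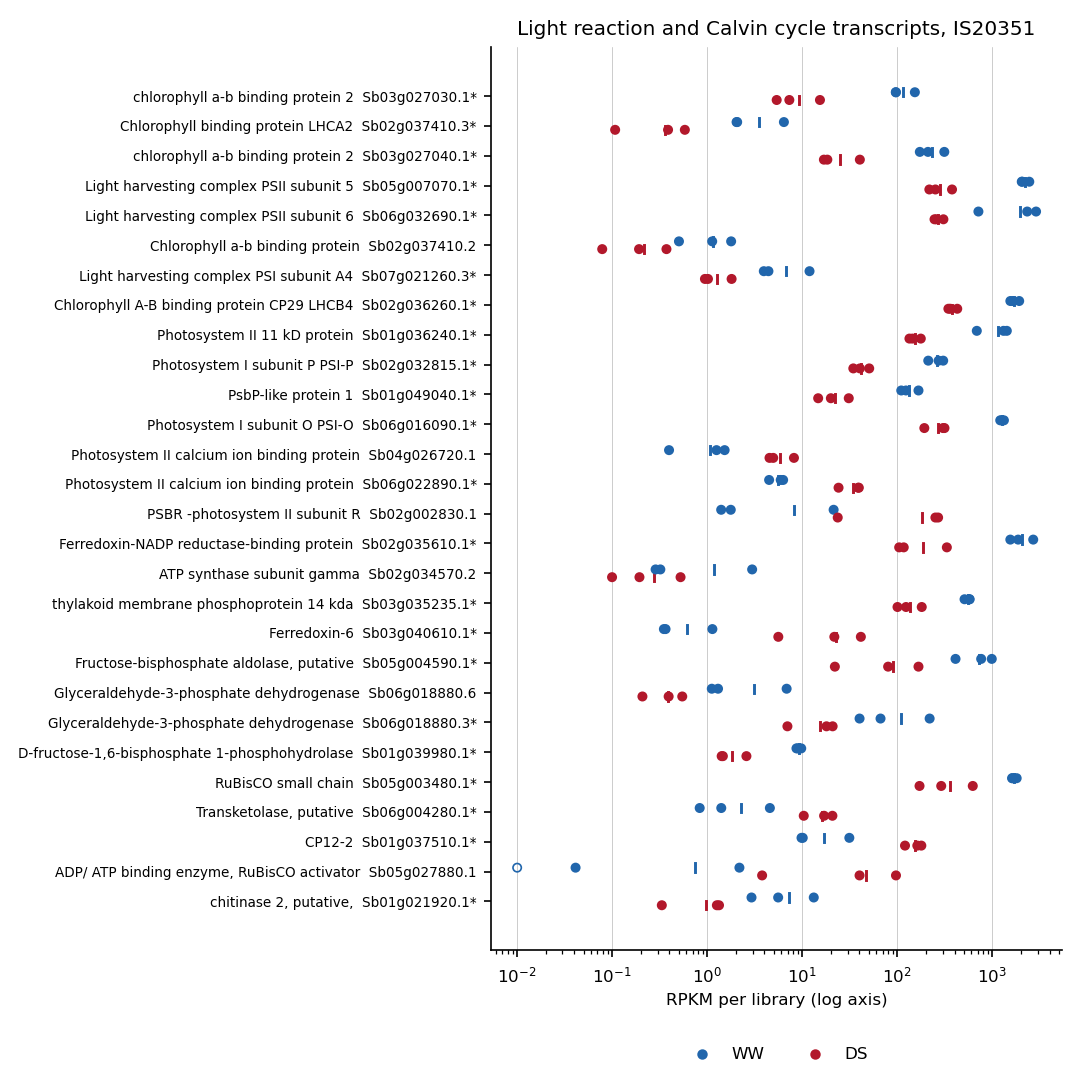
RPKM of each IS20351 library on a log axis for 19 light reaction and 9 Calvin cycle transcripts, WW in blue and DS in red, with a short bar at the mean of 3 libraries, an open circle drawn at 0.01 RPKM for a library without reads, and an asterisk for an edgeR adjusted p under 0.05. Antenna transcripts lie lower in DS plants in all 8 cases, whereas ferredoxin-6, CP12-2 and transketolase lie higher.

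In the Calvin cycle 4 of 6 enzyme transcripts were called lower and a regulator was called higher. The small chain of RuBisCO (Sb05g003480.1), the enzyme that fixes CO2, was at 1632, 1804 and 1614 RPKM in WW and 171, 289.9 and 623 in DS libraries, a ratio of -2.29 on the log2 scale (SE 0.51, adjusted p = 0.0364). Fructose-bisphosphate aldolase (Sb05g004590.1), which joins triose phosphates, was at 763, 410.0 and 987 RPKM in WW and 22, 80.1 and 167 in DS libraries, a ratio of -3.08 on the log2 scale (SE 0.76, adjusted p = 0.0467). For both enzymes DS library a was the lowest and DS library c the highest of the stressed plants. Fructose-1,6-bisphosphatase (Sb01g039980.1), the next enzyme of the cycle, was at 9.75, 8.69 and 8.95 RPKM in WW and 1.46, 1.42 and 2.58 in DS libraries, a ratio of -2.41 on the log2 scale (SE 0.37, adjusted p = 0.0155). Glyceraldehyde-3-phosphate dehydrogenase, which uses the NADPH of the light reaction, was listed with 2 transcripts of 1 gene. Sb06g018880.3 was at 66.6, 219 and 40.1 RPKM in WW and 18, 6.98 and 20.9 in DS libraries, a ratio of -2.89 on the log2 scale (SE 0.73, adjusted p = 0.0492), while Sb06g018880.6 was not called (log2 ratio -3.07, adjusted p = 0.0601). WW library b was highest for both transcripts. The 6 enzyme transcripts summed to 2474, 2453 and 2651 RPKM in WW and to 234, 396 and 824 in DS libraries.

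Transketolase (Sb06g004280.1), which rebuilds the CO2 acceptor, was the exception among the enzymes and was at 1.41, 4.56 and 0.833 RPKM in WW and 20.8, 17 and 10.4 in DS libraries, a ratio of 2.7 on the log2 scale (SE 0.62, adjusted p = 0.0391). CP12-2 (Sb01g037510.1), a small protein that holds Calvin cycle enzymes in an inactive complex in the dark, was at 9.82, 31.3 and 10.1 RPKM in WW and 179, 121 and 162 in DS libraries, a ratio of 3.08 on the log2 scale (SE 0.51, adjusted p = 0.018). All 3 DS plants were above the highest WW plant for each, where 22.6% of all transcripts tested lay above in that way. A RuBisCO activator (Sb05g027880.1) was at 0.0412, 2.18 and 0 RPKM in WW and 40.1, 96.9 and 3.78 in DS libraries, and its log2 ratio of 5.8 was not called (SE 1.78, adjusted p = 0.0797). Its libraries differed far more among themselves than those of the enzymes. The list also held a chitinase (Sb01g021920.1), an enzyme that cuts chitin and has no step in the cycle, at 13.2, 5.58 and 2.92 RPKM in WW and 0.333, 1.26 and 1.33 in DS libraries (log2 ratio -2.99, adjusted p = 0.0457). Of the 9 transcripts 2 were higher, 5 lower and 2 not called, with a median log2 ratio of -2.41. These 7 calls became 0, 5 and 0 with WW library a, b or c left out, 0, 2 and 4 with DS library a, b or c left out, and 0 in the fit of all 12 libraries.

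Starch and sucrose metabolism was the list in which higher calls prevailed. Granule-bound starch synthase 1b (Sb02g009870.1), which makes amylose, was at 451, 452 and 431 RPKM in WW and 59, 61.9 and 187 in DS libraries, a ratio of -2.18 on the log2 scale (SE 0.53, adjusted p = 0.0446). The branching enzyme IIb (Sb04g021540.1), which makes the branches of amylopectin, was at 1.5, 1.31 and 1.76 RPKM in WW and 10.7, 7.98 and 4.68 in DS libraries, a ratio of 2.21 on the log2 scale (SE 0.34, adjusted p = 0.0161). The synthase stayed far above the branching enzyme in every plant of either treatment. Sucrose synthase 2 (Sb01g035890.1), which cleaves sucrose reversibly, was at 14, 15.8 and 19.3 RPKM in WW and 106, 66.9 and 64.7 in DS libraries, a ratio of 2.15 on the log2 scale (SE 0.28, adjusted p = 0.0111). Cell wall invertase 7 (Sb06g031930.1), which splits sucrose outside the cell, was at 0.803, 2.18 and 1.25 RPKM in WW and 9.44, 8.02 and 4.08 in DS libraries, a ratio of 2.21 on the log2 scale (SE 0.46, adjusted p = 0.0304). Both rose without overlap between treatments, where 22.6% of all transcripts tested lay above in that way. Other invertases did not pass the test, with log2 ratios of -2.64 for invertase 4 (Sb03g047060.1, adjusted p = 0.0642) and 0.15 for Sb03g013420.1 (adjusted p = 0.776).

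Starch breakdown was divided too. Alpha-amylase AMY3 (Sb03g032830.1) was at 3.26, 2.73 and 4.52 RPKM in WW and 9.0, 18.4 and 19.8 in DS libraries, a ratio of 2.06 on the log2 scale (SE 0.38, adjusted p = 0.0236). The beta-amylase Sb02g035600.1, of a family that releases maltose, was at 92.6, 25 and 31.2 RPKM in WW and 8.22, 6.36 and 6.28 in DS libraries, a ratio of -2.95 on the log2 scale (SE 0.53, adjusted p = 0.0217). A second beta-amylase, Sb01g019850.1, was at 1.39, 56.4 and 0.988 RPKM in WW and 129.9, 59.7 and 219 in DS libraries, and was not called (log2 ratio 2.76, SE 1.48, adjusted p = 0.247). For that gene WW library b stood just below the lowest DS library and far above WW libraries a and c. Hexokinase 1 (Sb09g005840.1), which phosphorylates glucose, had a log2 ratio of 2.2 and was not called (adjusted p = 0.102). In all, 4 of 10 tested transcripts were higher, 2 lower and 4 not called, with a median log2 ratio of 2.11. The 6 calls became 0, 8 and 2 with WW library a, b or c left out, 0, 5 and 4 with DS library a, b or c left out, and 1 in the fit of all 12 libraries.

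Lipid transcripts were described by step. Among those that release and desaturate fatty acids, 2 rose. The thioesterase FATB (Sb10g023190.1), which ends the synthesis of saturated fatty acids in the plastid, was at 36, 68.1 and 39.1 RPKM in WW and 198, 112 and 319 in DS libraries, a ratio of 2.07 on the log2 scale (SE 0.48, adjusted p = 0.04). The acyl-carrier-protein desaturase Sb06g012520.1, which sets the first double bond, was at 108, 99.4 and 131 RPKM in WW and 645, 476 and 241 in DS libraries, a ratio of 1.87 on the log2 scale (SE 0.35, adjusted p = 0.0248). The omega-6 desaturases, which set the next double bond, fell. FAD6 (Sb07g021640.1), the plastid form, was at 357, 246 and 313 RPKM in WW and 54.5, 64.1 and 99.8 in DS libraries, a ratio of -2.16 on the log2 scale (SE 0.34, adjusted p = 0.0165). FAD2, the form of the endoplasmic reticulum, was at 51.1, 19.3 and 55.3 RPKM in WW and 5.31, 11.8 and 3.34 in DS libraries for its main transcript Sb04g029920.2, a ratio of -2.8 on the log2 scale (SE 0.55, adjusted p = 0.0271). Its transcript Sb04g029920.1 had a log2 ratio of -2.54 (adjusted p = 0.0338). The omega-3 desaturase FAD8 (Sb08g000460.1) overlapped between treatments and was not called (log2 ratio 3.05, adjusted p = 0.147). A second FATB gene, Sb02g009540.1, had the highest ratio of the fatty acid release group and was not called either (log2 ratio 3.77, adjusted p = 0.0869). The 3 transcripts with the widest ratios in fatty acid activation, elongation or acyl reduction were not called. KCS11 (Sb09g029260.1), FAR1 (Sb07g024290.1) and AAE1 (Sb10g012080.1) had adjusted p values of 0.175, 0.0787 and 0.0744.

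Enzymes that build membrane lipids were lower where they were called. SQD2 (Sb03g006480.1), which makes the sulfolipid of thylakoid membranes, was at 129, 30.1 and 339 RPKM in WW and 6.84, 11 and 3.41 in DS libraries, a ratio of -4.73 on the log2 scale (SE 0.91, adjusted p = 0.0255). The galactolipid synthase MGD2 (Sb07g027910.1) was at 4.5, 0.617 and 18.9 RPKM in WW and 0, 0.36 and 0.0373 in DS libraries and narrowly missed the threshold (log2 ratio -6.08, SE 1.57, adjusted p = 0.0519). For both glycolipid enzymes the WW libraries were spread widely and in the same order, with c highest and b lowest. XPL1 (Sb03g031940.1), which methylates phosphoethanolamine on the way to phosphatidylcholine, was at 14.8, 8.9 and 11.2 RPKM in WW and 1.76, 3.62 and 2.23 in DS libraries, a ratio of -2.33 on the log2 scale (SE 0.34, adjusted p = 0.0144). A diacylglycerol kinase (Sb03g036460.1), which makes the signal lipid phosphatidic acid, was at 7.82, 4.44 and 5.09 RPKM in WW and 0.6, 0.633 and 0.773 in DS libraries, a ratio of -3.21 on the log2 scale (SE 0.39, adjusted p = 0.0101). Another kinase of that kind, DGK1 (Sb01g032250.1), went the other way without passing the test (log2 ratio 2.1, adjusted p = 0.0864). The UbiE/COQ5 methyltransferase (Sb01g042150.1), of a family that methylates quinones, was at 281, 133 and 185 RPKM in WW and 24.1, 33.9 and 34.1 in DS libraries, a ratio of -2.82 on the log2 scale (SE 0.35, adjusted p = 0.0105). In sphingolipid metabolism the ASC1-like protein 2 (Sb04g029190.1), of the ceramide synthase family, fell from 18.3, 14.3 and 12.3 RPKM in WW to 2.64, 3.12 and 5.32 in DS libraries (log2 ratio -2.11, adjusted p = 0.0227). A ceramidase (Sb03g028410.1), which cleaves ceramide, rose from 0.295, 0.366 and 0.283 to 3.04, 2.85 and 1.49 RPKM (log2 ratio 2.82, adjusted p = 0.0142).

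Lipid breakdown held the highest ratio of the list. Phospholipase D alpha 1 (Sb08g022520.1), which also makes phosphatidic acid and acts in the closing of stomata in Arabidopsis, was at 0.0265, 0.27 and 0.0509 RPKM in WW and 2.17, 1.97 and 3.42 in DS libraries, a ratio of 4.35 on the log2 scale (SE 0.83, adjusted p = 0.0253). Acyl-CoA oxidase ACX2 (Sb05g023970.1), the first enzyme of beta-oxidation, was at 1.59, 1.93 and 1.23 RPKM in WW and 13, 12.9 and 10.8 in DS libraries, a ratio of 2.83 on the log2 scale (SE 0.26, adjusted p = 0.00595). The 3 DS plants were close to each other for ACX2, and so were the 3 WW plants. The thiolase PKT3 (Sb04g037280.2), the last enzyme of beta-oxidation, was at 0.486, 0.293 and 0.161 RPKM in WW and 1.68, 1.19 and 1.5 in DS libraries, a ratio of 2.11 on the log2 scale (SE 0.52, adjusted p = 0.0469). An acyltransferase of the lecithin:cholesterol type (Sb03g006290.1) was at 1.43, 0.419 and 2.23 RPKM in WW and 11.1, 15.7 and 7.74 in DS libraries, a ratio of 2.93 on the log2 scale (SE 0.60, adjusted p = 0.0292), and the transcript with the next identifier and the same annotation, Sb03g006300.1, was not called (log2 ratio 2.71, adjusted p = 0.116). The acyl-protein thioesterase Sb09g030200.1, which removes fatty acids from proteins, fell as well (log2 ratio -3.0, adjusted p = 0.0229). Glycerophosphodiester phosphodiesterases, which cut the head group from deacylated phospholipids, were lower in DS plants without overlap for all 4 listed genes. Over all transcripts tested 15.8% lay below in that way, and the study chose these 4 for their difference in the same libraries. Sb07g026000.1 was at 10.9, 2.51 and 17.9 RPKM in WW and 0.341, 0.597 and 1.4 in DS libraries, a ratio of -3.82 on the log2 scale (SE 0.87, adjusted p = 0.0377). Sb01g015000.1 was at 93.9, 26 and 79.3 RPKM in WW and 7.02, 16.5 and 14.3 in DS libraries, a ratio of -2.52 on the log2 scale (SE 0.54, adjusted p = 0.0327). The other two, Sb06g014320.1 and Sb06g019730.1, had log2 ratios of -2.54 and -2.16 and were not called (adjusted p = 0.0568 and 0.115). Of 49 lipid transcripts 38 were tested, and 7 were higher, 11 lower and 20 not called, with a median log2 ratio of -1.88. The 18 calls became 0, 21 and 4 with WW library a, b or c left out, 1, 19 and 14 with DS library a, b or c left out, and 7 in the fit of all 12 libraries. Sulfotransferases and sterol dehydrogenases of the list gave 0 calls among 4 tested, with log2 ratios from -3.8 (Sb02g038840.1, adjusted p = 0.0699) to 2.03 (Sb01g011900.1, adjusted p = 0.16).

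**Figure D4:**
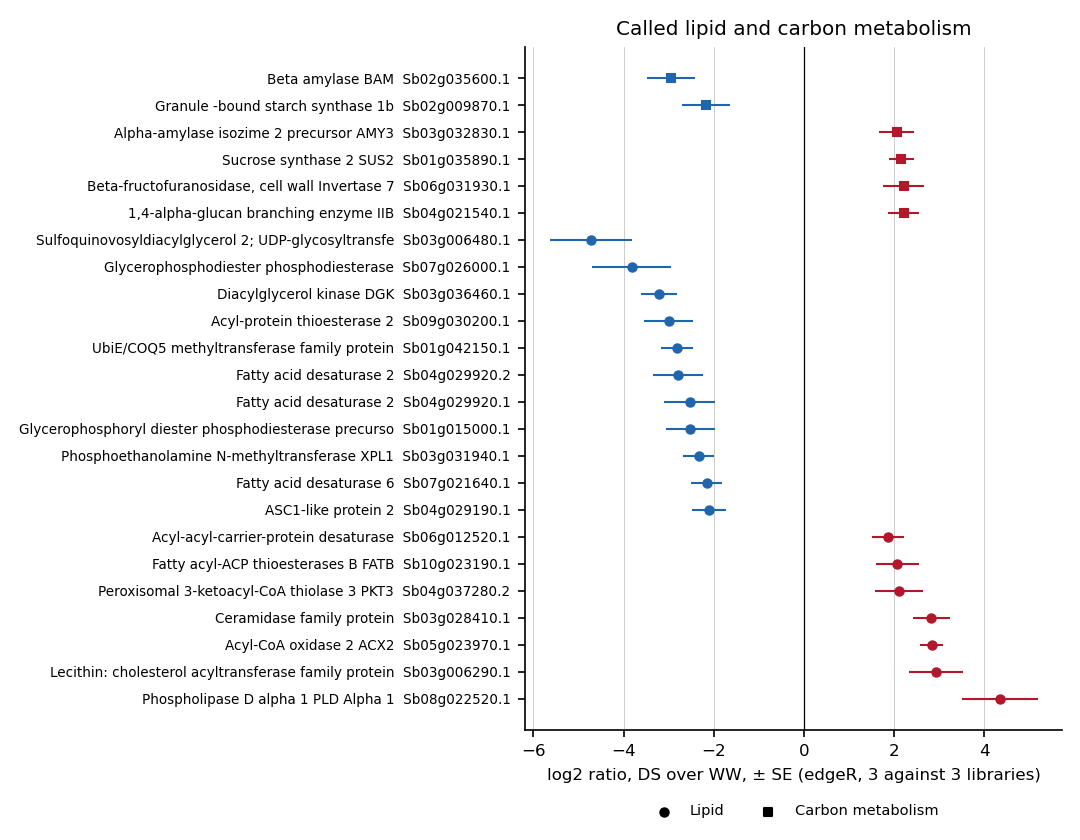
Log2 ratio of DS over WW with its standard error (edgeR, 3 against 3 libraries) for the 18 called lipid transcripts (circles) and the 6 called carbon metabolism transcripts (squares), higher in red and lower in blue. The highest ratio was that of phospholipase D alpha 1, at 4.35, and the lowest that of SQD2, at -4.73.

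Plastid isoprenoids are the source of carotenoids and of the tail of chlorophyll. Their enzymes were called lower in 6 of 7 tested cases, beside 6.62% of all transcripts tested. GGPS1 (Sb02g037510.1), which makes their common precursor, was at 76, 53.1 and 73.1 RPKM in WW and 11.8, 24.3 and 11.2 in DS libraries, a ratio of -2.25 on the log2 scale (SE 0.33, adjusted p = 0.014). Lycopene epsilon cyclase (Sb03g026020.1), which opens the branch to lutein, was at 60.3, 40.8 and 55.2 RPKM in WW and 7.44, 7.68 and 11.1 in DS libraries, a ratio of -2.68 on the log2 scale (SE 0.31, adjusted p = 0.00921). Geranylgeranyl reductase (Sb04g028050.1), which makes the phytyl tail of chlorophyll and tocopherol, was at 437, 254 and 405 RPKM in WW and 29.8, 44.2 and 14.9 in DS libraries, a ratio of -3.79 on the log2 scale (SE 0.42, adjusted p = 0.00921). All DS plants were below all WW plants for each of these enzymes, where 15.8% of all transcripts tested lay below in that way. The study listed them for their drought difference, and the group was made by hand with values known. Phytoene synthase, the entry to carotenoids, was counted as 2 transcripts of 1 gene, with log2 ratios of -6.37 for Sb10g031020.1 (adjusted p = 0.00595) and -2.45 for Sb10g031020.2 (adjusted p = 0.0293). The first of these was at 2.1, 2.18 and 2.05 RPKM in WW and 0.0388, 0.0188 and 0.0185 in DS libraries. Its DS values rested on 4 reads in all, so that ratio is imprecise. An oxidoreductase (Sb02g039970.1), whose annotation names no isoprenoid step, also fell (log2 ratio -3.17, adjusted p = 0.0283). Deoxyxylulose phosphate synthase (Sb02g005380.1), the first enzyme of the plastid route, was not called (log2 ratio 1.18, adjusted p = 0.319). None of the 7 tested terpene and sterol cyclases was called, with log2 ratios from -3.56 for terpene synthase 10 (Sb07g004470.1, adjusted p = 0.0576) to 3.71 for terpene synthase 6 (Sb07g005130.1, adjusted p = 0.0625).

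Wax, nitrile and flavonoid enzymes gave 6 of the 10 higher calls of secondary metabolism. CER1 (Sb01g019590.1), which makes the alkanes of cuticular wax, was at 44.2, 62.8 and 29.7 RPKM in WW and 308, 155 and 433 in DS libraries, a ratio of 2.64 on the log2 scale (SE 0.49, adjusted p = 0.0235). A second CER1 gene, Sb04g026320.1, was not called (log2 ratio 3.28, adjusted p = 0.0951), its WW library b lying close to its lowest DS library. Nitrilase 4, which detoxifies the cyanoalanine formed when ethylene is made, was listed with 2 neighbouring identifiers. Sb04g026950.1 was at 83, 127 and 97.8 RPKM in WW and 661, 338 and 639.7 in DS libraries, a ratio of 2.32 on the log2 scale (SE 0.37, adjusted p = 0.0164). Sb04g026940.1 was at 18.9, 30.3 and 18.4 RPKM in WW and 91.8, 75.2 and 108 in DS libraries, a ratio of 1.93 on the log2 scale (SE 0.30, adjusted p = 0.0161), and the other transcript of that gene, Sb04g026940.2, had a log2 ratio of 2.53 (adjusted p = 0.0166). In each of the 3 nitrilase transcripts WW library b was the highest of the watered plants and DS library b the lowest of the stressed plants. Leucoanthocyanidin reductase (Sb06g029520.1), which makes units of condensed tannins, was at 0.321, 0.859 and 0.849 RPKM in WW and 39.6, 44.3 and 40.1 in DS libraries, a ratio of 5.8 on the log2 scale (SE 0.42, adjusted p = 0.00391). That was the highest ratio of the 28 listed transcripts called higher, and the DS plants were close to each other. Dihydroflavonol reductase Sb02g028590.1, an enzyme of anthocyanin synthesis, was at 0.0804, 0.104 and 0.309 RPKM in WW and 1.09, 1.96 and 0.883 in DS libraries, a ratio of 2.81 on the log2 scale (SE 0.68, adjusted p = 0.0437). Isoflavone reductase (Sb03g008760.1) fell from 92.5, 199.6 and 126 RPKM in WW to 21.9, 25.3 and 43.1 in DS libraries (log2 ratio -2.29, adjusted p = 0.0223).

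Transferases and wall-related enzymes varied by family. Of 9 tested O-methyltransferases, which modify phenolic compounds, 5 were called lower and 0 higher. Among these 5, caffeoyl-CoA 3-O-methyltransferase (Sb07g028520.1), an enzyme of lignin synthesis, was at 6.72, 1.63 and 12.4 RPKM in WW and 0.413, 0.802 and 0.0987 in DS libraries, a ratio of -4.14 on the log2 scale (SE 0.94, adjusted p = 0.037). The widest ratios of that family, -4.97 for Sb10g027340.1 and 2.79 for Sb09g025530.1, were not called (adjusted p = 0.08 and 0.0619). Cinnamyl alcohol dehydrogenase 9 (Sb07g006090.1), the last enzyme before lignin monomers, rose (log2 ratio 2.15, adjusted p = 0.0165), as did the ascorbate oxidase Sb10g022440.1, an enzyme of the cell wall, which was at 0.662, 0.607 and 0.618 RPKM in WW and 14.9, 12.9 and 6.35 in DS libraries (log2 ratio 4.03, adjusted p = 0.00595). An acetyltransferase annotated by its likeness to a taxane enzyme (Sb06g001870.1) was at 3.46, 16.5 and 2.76 RPKM in WW and 85.4, 69.9 and 159 in DS libraries, a ratio of 3.73 on the log2 scale (SE 0.79, adjusted p = 0.0313). A second one, Sb09g005480.1, rose with a log2 ratio of 1.91 (adjusted p = 0.0117). Sorghum makes no taxanes, so the annotation names the protein family only. Of 67 secondary metabolism transcripts 44 were tested, and 10 were higher, 12 lower and 22 not called, with a median log2 ratio of 1.02 that was -0.013 without DS library b. The 22 calls became 2, 27 and 8 with WW library a, b or c left out, 3, 21 and 19 with DS library a, b or c left out, and 9 in the fit of all 12 libraries.

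Antioxidant transcripts were called lower in 9 and higher in 3 of 18 cases. Ascorbate peroxidase (Sb06g027520.1), which uses ascorbate to remove hydrogen peroxide, was at 219, 81.8 and 156 RPKM in WW and 6.19, 13.7 and 10.8 in DS libraries, a ratio of -4.02 on the log2 scale (SE 0.47, adjusted p = 0.00959), and its transcript Sb06g027520.2 had a log2 ratio of -3.36 (adjusted p = 0.0275). A second ascorbate peroxidase gene, Sb06g001970.1, rose and was at 1.97, 2.42 and 2.3 RPKM in WW and 24.1, 61.7 and 6.54 in DS libraries, a ratio of 3.59 on the log2 scale (SE 0.71, adjusted p = 0.0271). The gene that fell was by far the more abundant of the pair in watered plants, and in DS plants a and b the gene that rose was the higher one. Peroxiredoxin-5 (Sb04g006270.1), a thiol peroxidase, was at 139.5, 148 and 172 RPKM in WW and 6.25, 23.5 and 20.3 in DS libraries, a ratio of -3.32 on the log2 scale (SE 0.49, adjusted p = 0.0145). Superoxide dismutase (Sb10g002970.1), which turns superoxide into hydrogen peroxide, was at 29.3, 25.8 and 41.4 RPKM in WW and 3.43, 13 and 2.5 in DS libraries, a ratio of -2.54 on the log2 scale (SE 0.60, adjusted p = 0.0412). Stress left DS library b above DS libraries a and c for both.

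Glutaredoxins, small thiol proteins that use glutathione, were lower in all 4 listed genes with that name, 3 of them called. Sb03g014800.1 was at 208, 252 and 103 RPKM in WW and 31.8, 43.3 and 5.94 in DS libraries, a ratio of -2.97 on the log2 scale (SE 0.66, adjusted p = 0.0361), and its neighbour by identifier Sb03g014790.1, annotated as an electron carrier, fell as well (log2 ratio -3.73, adjusted p = 0.043). Sb08g017170.1, Sb08g017120.1 and Sb08g017090.1, which also lie close by identifier, had log2 ratios of -2.63, -2.8 and -4.47 (adjusted p = 0.0469, 0.0621 and 0.0389). In all 5 of these transcripts the lowest WW library was c. A thioredoxin family protein (Sb06g023440.1), of the proteins that reduce other proteins, rose from 8.61, 14.1 and 10.3 RPKM in WW to 61.7, 50.6 and 32.4 in DS libraries (log2 ratio 2.0, adjusted p = 0.0144). Cytochrome b5 isoform E (Sb04g033350.1), an electron donor to enzymes of the endoplasmic reticulum, rose from 11.7, 30.1 and 18.2 to 126, 80.6 and 193 RPKM (log2 ratio 2.66, adjusted p = 0.0229). The oxygen binding protein Sb09g025730.2 had the lowest ratio of all 138 tested transcripts, -6.89 (SE 0.83, adjusted p = 0.0101), from 46.3, 38.7 and 40.6 RPKM in WW to 0.384, 0.792 and 0 in DS libraries, while thioredoxin peroxidase (Sb02g040650.1) had the highest ratio of this list and was not called (log2 ratio 4.83, adjusted p = 0.0537). The median log2 ratio of the 18 was -2.88. Their 12 calls became 0, 9 and 3 with WW library a, b or c left out, 1, 12 and 8 with DS library a, b or c left out, and 1 in the fit of all 12 libraries.

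**Figure D5:**
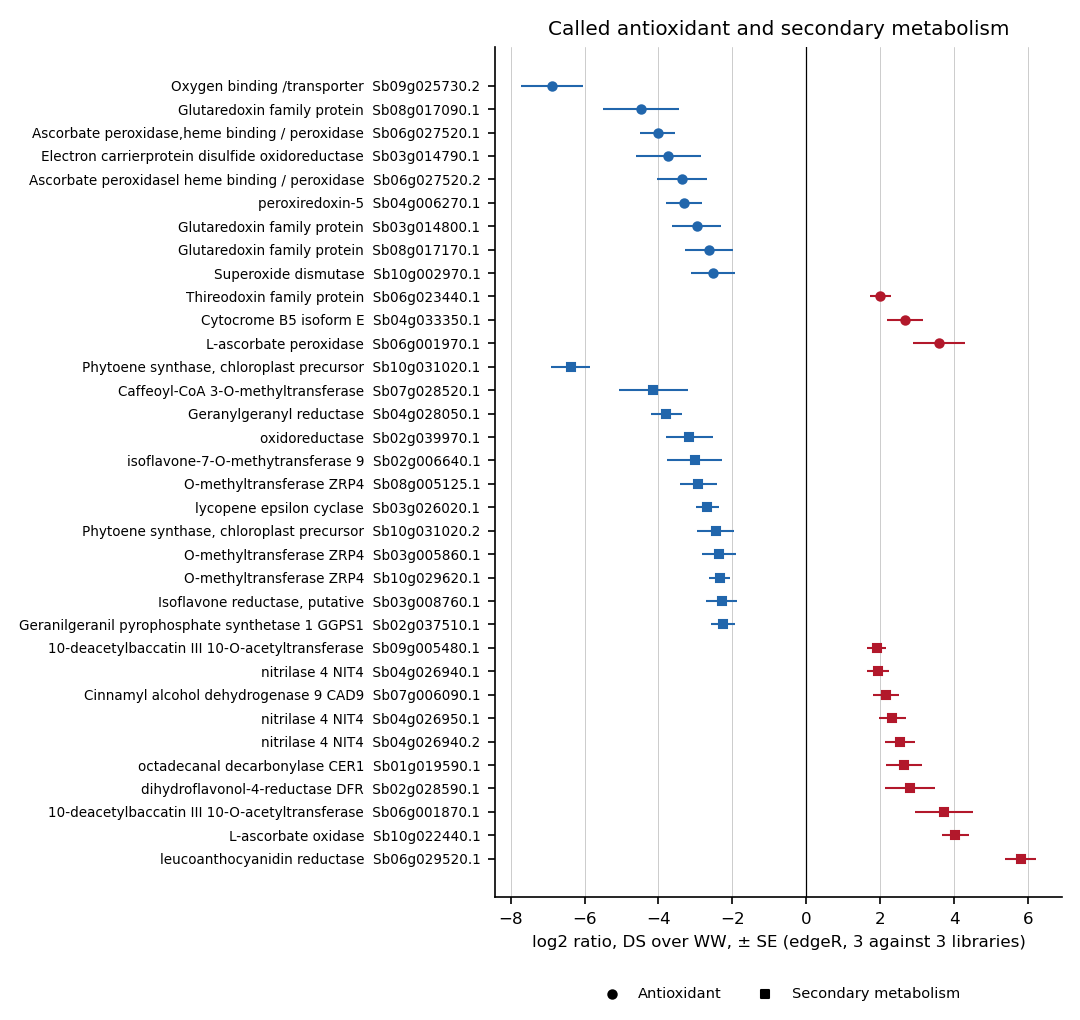
Log2 ratio of DS over WW with its standard error (edgeR, 3 against 3 libraries) for the 12 called antioxidant (circles) and 22 called secondary metabolism transcripts (squares), higher in red and lower in blue. Ratios ran from -6.89 for an oxygen binding protein to 5.8 for leucoanthocyanidin reductase.

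The other 36 of the 174 listed transcripts were below 1 RPKM in both treatments and were not tested. Among them 5 had more than 3 reads in WW and 0 in DS libraries. Fructokinase-2 (Sb07g001320.1), which phosphorylates fructose, was at 0.374, 0.59 and 0.359 RPKM in WW libraries, at least 18.6-fold above the limit that 0 reads allow (3 reads over the 3 DS libraries). By the same limit invertase 2 (Sb04g021810.2) was at least 22.1-fold, cycloartenol synthase (Sb05g022745.1), the first enzyme of plant sterols, at least 17.3-fold, laccase 7 (Sb03g039980.1) at least 14.1-fold and a sphingoid base hydroxylase (Sb04g000940.1) at least 13.1-fold higher in WW than in DS plants. These limits cover counting error only. Other transcripts of the 36 went the other way, with all DS libraries above all WW libraries. Reads in WW and DS libraries were 2 and 53 for Sb06g027990.1, 2 and 57 for Sb10g024520.1, 6 and 96 for Sb08g011530.1, and 2 and 34 for Sb04g031660.1.

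The 698 and 1207 transcripts called in IS20351 were then read in the tolerant genotype, whose WW and DS plants are separate samples. In IS22330 630 of the 698 (90.3%) had a ratio above 0, where 52.9% of all transcripts tested did, and 1009 of the 1207 (83.6%) had a ratio below 0, where 46.5% did. Their median log2 ratios there were 0.68 and -0.51, beside 1.72 and -1.66 in IS20351, the contrast on which the transcripts were chosen. IS22330 DS library c was known from earlier results to stand apart from its group, which was not examined again here. Without that library the shares were 93.6% and 97.3% and the medians 0.95 and -1.23. Libraries of IS22330 lay on the same side without overlap for 44 of the 698 (6.3%), where 4.98% of all transcripts lay above, and for 296 of the 1207 (24.5%), where 9.12% of all lay below. They lay on the opposite side for 2 and 3. The share for transcripts called higher was thus near that of all transcripts. The interaction test of edgeR over all 12 libraries, which asks whether the drought responses differed, called 0 of 18217 transcripts, with or without that library, and 1151 had an unadjusted p under 0.05. No response of IS20351 was thus shown to differ from that of IS22330 at this depth and number of plants, and this does not show that they were alike.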

How the data were processed

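Leaf RNA of IS20351 and IS22330, WW or DS, was sequenced on the Illumina Genome Analyzer IIx from poly-A RNA in 12 libraries, of which the 6 of IS20351 were compared here. The authors removed adapters and low-quality reads and used SOAPaligner/SOAP2 (the version is not given in the sources used here) with up to 5 mismatches against the sorghum genome of Ensembl Plants release 20. The estimated counts that the authors deposited are averages of unique reads per transcript over 3 libraries. The deposited RPKM is likewise an average of 3 values, each computed in its own library, and a library without reads entered both means as 0.001. As only means were deposited, the whole reads of each library were solved from both columns. On simulated libraries 27989 of 27989 transcripts were recovered. In IS22330, 4 transcripts could not be solved and were left out of the fits of 12 libraries. The design foresaw size alone if reads could not be solved.

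Reads were tested in R 4.3.3 with the edgeR 4.0.16 quasi-likelihood test (TMM, prior count 0.125, Benjamini-Hochberg over 18221 transcripts). The biological coefficient of variation was 0.417. In counts simulated for these 6 libraries the test found 4, 34, 49 and 48 of 50 transcripts changed 2-, 4-, 8- and 16-fold, with 1 false call. The simulated spread was only the one fitted to the level of expression, with no library standing apart. Changed transcripts were drawn from those above 50 reads on average. These counts check the working of the test and do not give its power or error rate on the real libraries. The p-values set the difference of a transcript against the spread between these 3 and 3 plants, moderated by the spread that edgeR shares over all transcripts. Alternatives used limma 3.58.1 on log2(RPKM + 0.1) or log2(RPKM + 1), DESeq2 1.42.0, other scalings, minimums and thresholds, all 12 libraries, 1 transcript per gene, and each library left out. Tables and plots come from Python 3.11.15, pandas 2.3.3, numpy 2.4.6 and matplotlib 3.10.9.

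The transcripts, lists and tests were chosen with earlier results of these data known, and the fit of 6 libraries was preferred when its result and that of the fit of 12 were known in outline. Named transcripts were the 10 highest and 10 lowest log2 ratios among named calls at 5 RPKM or more, the 5 most abundant calls in each direction, and the extremes of each pathway and role. Others were added after their values were seen, and the role groups within a pathway were made by hand with values known. Names and pathways come from a table of the study. RefSeq gene records matched 0 of the transcript identifiers, so lists by product name, cell type markers and sequences were not used here. Whether the tissue was meristem was therefore not checked against markers. Counts by level of expression with library totals, and the fits without IS22330 DS library c, were alternatives added after seeing the data.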

Additional observations from a re-analysis of the deposited data

Results flagged for a closer look

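An O-methyltransferase annotated as ZRP4 (Sb03g005860.1) was singled out because the libraries of the 2 genotypes moved apart in opposite directions under the same drought contrast. In IS20351 it was at 8.57, 4.88 and 9.18 RPKM in WW and 0.912, 1.63 and 2.17 in DS libraries, a log2 ratio of -2.37 (edgeR adjusted p = 0.0269). In IS22330 it was at 5.08, 3.60 and 6.29 RPKM in WW and 7.85, 15.4 and 9.55 in DS libraries, a log2 ratio of 1.18 (edgeR adjusted p = 0.383). The interaction test gave an unadjusted p of 7.66e-05 and an adjusted p of 0.465 over all transcripts (0.348 without IS22330 DS library c), so the difference did not pass the correction. The other tested transcripts annotated as ZRP4 had log2 ratios below 0 in both genotypes. In IS20351 and IS22330 these were -2.35 and -0.43 for Sb10g029620.1, -2.92 and -1.32 for Sb08g005125.1, and -4.44 and -0.34 for Sb10g027360.1. For single transcripts, groups of 3 libraries were too small to be examined for deviating values.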

How the results depend on the processing

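The counts of transcripts higher and lower in DS plants (698 and 1207) were 260 and 476 in the fit of all 12 libraries, 1762 and 2342 with DESeq2, and 0 and 0 at the thresholds of the study. With a pseudocount of 1 limma called 1081 higher. Leaving out 1 library of IS20351 gave 6 to 926 higher and 24 to 1411 lower transcripts, and fits of 5 libraries have fewer residual degrees of freedom. With RLE factors, other RPKM minimums, 1 transcript per gene, a minimum ratio of 2-fold, limma with a pseudocount of 0.1 and library totals, both counts stayed within 1.5 times. The counts 4-fold apart in the means (741 and 593) were 429 and 338 at a mean of 5 RPKM or more and 341 and 274 with 1 RPKM added to both means. The counts without overlap moved by less than 1.5 times. Of the named transcripts, 9 that were not called changed sign when 1 library was left out. Leaving out each library in turn, the log2 ratio of Sb09g001690.1 ran from -0.044 to 1.61, Sb04g005510.1 from -0.15 to 1.20, Sb03g039530.1 from -0.82 to 4.67, Sb05g021840.1 from -1.32 to 0.067, Sb01g032960.1 from -2.86 to 0.17, Sb01g032970.1 from -1.26 to 0.35, Sb01g028880.1 from -4.41 to 0.46, Sb09g001420.1 from -0.14 to 2.08 and Sb03g013420.1 from -0.16 to 0.31. The median of secondary metabolism ran from -0.013 to 1.39. The cause of these changes was not tested. No paired analysis was possible because the deposited columns are group means that carry no replicate numbers. Transcripts near 1 RPKM rest on few reads, and only group means and 3 plants a treatment limit all calls.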
